A study of Mus musculus with 6 samples.

Results

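The AP-1 transcription factor genes examined here are Fos, Fosb, Fosl1, Fosl2, Jun, Junb, Jund, Atf3, Jdp2 and Mafk, chosen by gene symbol. All 10 were found, once each, among the 18493 genes of the table, and 9 passed the filter on low counts. They were measured by RNA-seq in regulatory T (Treg) cells, which were sorted by CD4, CD25 and YFP out of the spleen and lymph node of female C57BL/6 mice aged 7 weeks, with 3 libraries per genotype. The conditional knockout mice (cKO) were Foxp3cre/+ TKTfl/fl, so that Tkt, which encodes the pentose phosphate enzyme transketolase, is deleted where Cre is made from the Foxp3 locus. The wild-type mice (WT) were Foxp3cre/+ and carried the same Cre allele. Foxp3 is X-linked, so these females are mosaics, and the YFP gate takes the cells in which the Cre allele is active. Pooling of animals within a library is not described in the labels, and each p-value rests on the variation among the 6 libraries alone, which may be in part technical.

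AP-1 is a family of dimers of basic leucine zipper (bZIP) proteins. FOS proteins cannot pair with each other and bind DNA as heterodimers with JUN proteins, whereas JUN proteins also pair among themselves. In T cells, antigen receptor signals raise Fos and Jun within minutes as immediate early genes, and AP-1 binds with NFAT at cytokine genes. In Treg cells, Foxp3 also binds NFAT, and the AP-1 relative BATF is needed for the effector state in tissues.

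The promoters of 4 members are given because these genes moved in different directions between libraries: Fos stood low in the libraries WT2 and cKO1, Fosl2 stood high in both, Atf3 stood high in WT2, and Jun varied little. Each run is 300 bases, 250 before and 50 after the annotated start, from RefSeq on GRCm38.p6, the build also called mm10, and is written along the gene's own strand. Capitals mark matches to the cyclic AMP response element core TGACGT, to TGACATCA, the AP-1-like site known from the Jun promoter, or to the kappaB motif, each searched on both strands.
Fos, chr12:85473640-85473939, plus strand: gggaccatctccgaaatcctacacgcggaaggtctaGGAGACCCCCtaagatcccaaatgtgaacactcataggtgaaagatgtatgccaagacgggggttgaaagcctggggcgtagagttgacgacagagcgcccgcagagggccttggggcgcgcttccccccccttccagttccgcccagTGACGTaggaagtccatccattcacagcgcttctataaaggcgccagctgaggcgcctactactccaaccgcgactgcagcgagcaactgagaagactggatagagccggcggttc
Jun, chr4:95052173-95052472, minus strand: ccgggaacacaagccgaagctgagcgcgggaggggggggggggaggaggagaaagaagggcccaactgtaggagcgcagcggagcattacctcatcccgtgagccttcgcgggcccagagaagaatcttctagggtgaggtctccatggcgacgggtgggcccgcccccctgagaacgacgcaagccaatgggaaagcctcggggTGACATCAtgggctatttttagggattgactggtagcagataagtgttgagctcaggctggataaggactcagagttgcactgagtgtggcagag
Atf3, chr1:191183284-191183583, minus strand: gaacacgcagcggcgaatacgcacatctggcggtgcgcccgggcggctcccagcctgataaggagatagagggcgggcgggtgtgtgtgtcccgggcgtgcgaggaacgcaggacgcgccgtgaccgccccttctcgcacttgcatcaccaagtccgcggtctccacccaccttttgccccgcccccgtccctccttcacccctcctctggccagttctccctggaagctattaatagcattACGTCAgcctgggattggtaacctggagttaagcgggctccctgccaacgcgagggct
Fosl2, chr5:32136222-32136521, plus strand: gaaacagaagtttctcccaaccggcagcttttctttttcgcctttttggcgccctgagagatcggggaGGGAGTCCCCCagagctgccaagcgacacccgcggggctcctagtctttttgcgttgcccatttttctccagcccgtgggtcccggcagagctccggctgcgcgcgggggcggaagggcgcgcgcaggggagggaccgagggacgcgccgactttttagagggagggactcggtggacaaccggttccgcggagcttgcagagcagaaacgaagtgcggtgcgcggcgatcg

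The TGACGT core lay in the windows of Fos, Atf3 and Jdp2, against 7.64% of 27025 promoters of the same length. In Atf3 it is on the opposite strand and reads ACGTCA above. Jdp2 has 3 windows and matched only in window 2. The shares over all promoters count only window 1 of each gene, and by that rule Jdp2 has no match. TGACATCA was found in Jun alone among the members, against 3.76% of all promoters. The kappaB motif was matched in Fos, Fosb and Fosl2, against 4.35% of promoters, and the 2 matches in Fosl2 overlap on opposite strands. Neither TGANTCA (7.93% of promoters), the classical AP-1 site with any middle base, nor the CArG box of serum response factor (1.57%) was in any member's window. The windows reach only 250 bases before the start, so sites farther upstream were not searched and may be present. Fosl1 had no entry among these windows. Fos and Jdp2 are neighbours on chromosome 12, with a gap of 121 kb, and Batf follows 46.8 kb after Jdp2. Junb and Jund are both on chromosome 8 but lie 14276 kb apart.

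The libraries held 17647866 to 18215168 estimated reads in cKO and 17180577 to 17715571 in WT. Tkt stood at 52.5, 44.8 and 31.9 CPM (reads scaled to library size) in the cKO libraries, against 126, 97.1 and 121 CPM in the WT libraries. Its log2 fold change was -1.41 ± 0.19 (SE), and it was not called by edgeR's test (adjusted p = 0.0516). The 8 tested Treg and CD4 T cell markers were all detected, 0 were called by edgeR's test, and 5 had estimates below 0 and 3 above. Foxp3 lay between 558.6 and 676 CPM in cKO and between 458 and 686 CPM in WT. Ikzf2, which encodes Helios, lay between 537 and 608 CPM in cKO and between 626 and 714 CPM in WT, the 1 marker of this list that was lower at an unadjusted p under 0.05. Ctla4 varied most, between 492 and 977 CPM in cKO and between 753 and 1727 CPM in WT. On the first principal component, which held 36.1% of the variance, cKO1 (-33.2), WT2 (-25.4) and cKO2 (-8.11) lay on one side and cKO3 (18.4), WT3 (22.4) and WT1 (25.9) on the other. The 2 libraries at the far end, cKO1 and WT2, were left out together as an alternative, although cKO2 was nearer to WT2 than to cKO3. All 7 erythroid markers were detected, and their summed level was 199 CPM in cKO1, against 3.56 to 3.98 CPM in cKO3 and cKO2 and 0.277 to 5.80 CPM in WT. The 11 B cell markers summed to 48.8 to 109.7 CPM in cKO and 63.1 to 86.0 CPM in WT. The 13 myeloid and dendritic cell markers summed to 219 to 276 CPM in cKO and 224 to 239 CPM in WT. These 2 sums overlapped between genotypes, but Cd74 supplied most of the B cell sum and Ctss most of the myeloid sum. Of the 8 B cell markers tested, 6 had estimates above 0 (median log2 fold change 0.73), with 2 higher and 1 lower at an unadjusted p under 0.05 and 0 called. Bank1, a B cell scaffold gene, stood at 2.33, 2.89 and 3.68 CPM in the cKO libraries and 1.44, 1.55 and 1.69 CPM in the WT libraries, without overlap, as in 6.1% of all genes tested. Cd22, the 1 lower, stood at 7.44, 5.40 and 3.29 CPM in cKO and 8.60, 7.59 and 9.52 CPM in WT. It also had no overlap, as in 8.12% of all genes. Of the 10 myeloid markers tested, 8 had estimates above 0 (median 0.34), with 1 higher at an unadjusted p under 0.05 and 0 called. That marker, the macrophage receptor gene Csf1r, stood at 9.07, 21.97 and 2.40 CPM in the cKO libraries and 1.66, 4.25 and 1.46 CPM in the WT libraries, with overlap. The 8 CD8 T and NK cell markers summed to 35.1 to 42.4 CPM in cKO and 37.8 to 42.6 CPM in WT. The 7 stromal and endothelial markers summed to 225 to 249.7 CPM in cKO and 189.8 to 223 CPM in WT, without overlap and mostly from Pecam1, which T cells also express. No marker of these lists was at 0 in every library, and the part of other cells in the results below was not tested. In bulk RNA, fewer cells expressing a gene and less RNA per cell cannot be told apart.

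The members differed widely in level per transcript length, given as the FPKM values (reads scaled to transcript length and library size) that the authors deposited. Junb, which encodes a JUN protein with a known part in effector Treg cells, was the most abundant member in every library, at 2449, 2266 and 1326 FPKM in the cKO libraries and 1768, 2609 and 1798 FPKM in the WT libraries. It ranked between 9 and 53 among all genes of a library. Fos, Jund and Jun followed at means of 333 ± 179, 314 ± 29.9 and 314 ± 48.7 FPKM in cKO and 443 ± 158, 361 ± 24.2 and 315 ± 32.3 FPKM in WT (SD, n = 3). No pair of these 3 genes kept 1 order in all 6 libraries. Within WT, Jund stood above Jun in each library, at 359, 339 and 387 against 300, 292 and 352 FPKM. In cKO their order varied. Fosb averaged 121 ± 61.4 FPKM in cKO and 258 ± 8.87 FPKM in WT. Mafk averaged 42.2 ± 22.5 FPKM in cKO and 36.3 ± 20.5 FPKM in WT, and its lowest library stood above the Fosl2 value of every library but WT2. Fosl2 averaged 9.38 ± 7.16 FPKM in cKO and 14.0 ± 11.4 FPKM in WT. Atf3, at 1.78 ± 1.05 FPKM in cKO and 4.05 ± 2.65 FPKM in WT, and Jdp2, at 0.78 ± 0.346 FPKM in cKO and 1.55 ± 0.19 FPKM in WT, were low, and cKO3 reversed their order. Fosl1 lay at or near 0.

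**Figure D1:**
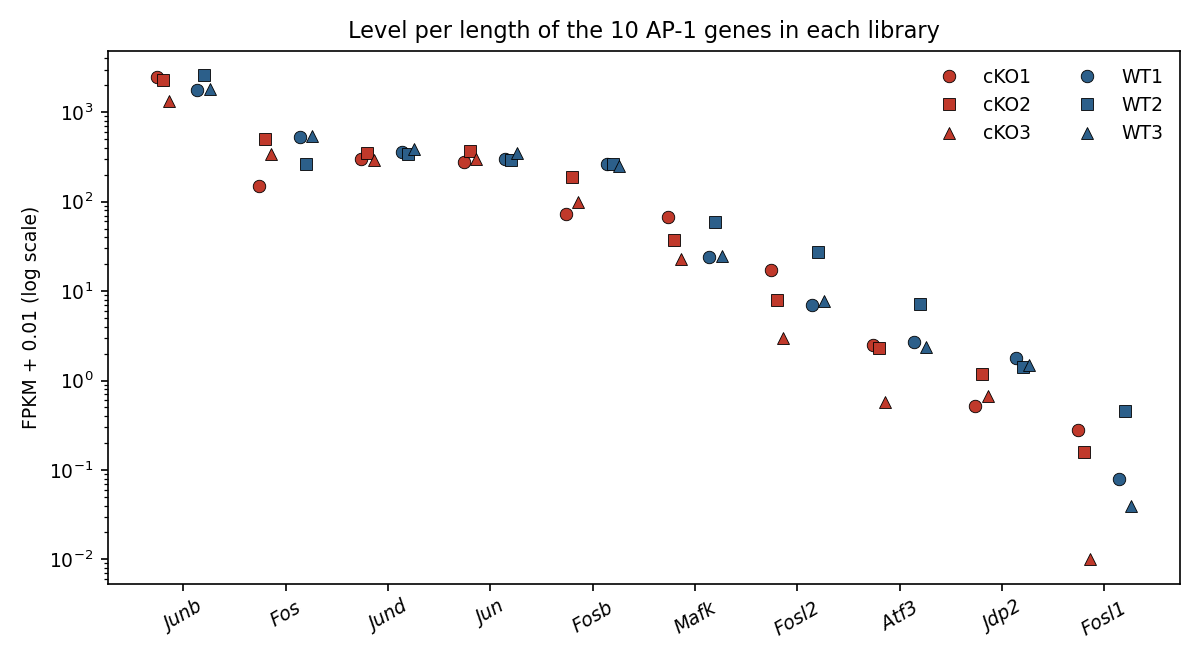
Level of each AP-1 gene in each library as deposited FPKM plus 0.01 on a log scale, with genes in order of mean level; red symbols are the 3 cKO libraries and blue symbols the 3 WT libraries, with the shape giving the replicate number. Junb lies above every other member in all 6 libraries, and the 3 red Fosb points lie below the 3 blue ones.

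The JUN family outweighed the FOS family in every library. Summed over Jun, Junb and Jund, the level was 3028, 2983 and 1915 FPKM in cKO, against 2427, 3240.1 and 2537 FPKM in WT. Summed over the 4 FOS genes it was 239.7, 704 and 447 FPKM in cKO, against 791, 552 and 800.4 FPKM in WT. The sum of the JUN family was therefore 12.6, 4.24 and 4.29 times that of the FOS family in the cKO libraries and 3.07, 5.87 and 3.17 times in the WT libraries. The highest ratios belonged to cKO1 and WT2, and the groups overlapped. Junb supplied 69.2% to 80.9% of the JUN sum in cKO and 70.9% to 80.5% in WT. Fos supplied 62.1% to 77.3% of the FOS sum in cKO and 47.2% to 68.1% in WT, and Fosb 22.1% to 30.6% in cKO and 30.9% to 47.8% in WT. The shares of Fosb did not overlap, by a margin of less than 1 percentage point. These are RNA levels and say nothing of the proteins or of which dimers formed.

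No AP-1 gene passed the test between genotypes. Tkt itself was not called by edgeR's test (adjusted p = 0.0516), so the lack of a call is no evidence of an equal level. Of the 9 tested members, 0 were called at an adjusted p under 0.05 by edgeR's quasi-likelihood test, and 0 by DESeq2 or limma-voom. Of the 12887 genes tested by edgeR, 0.21% were called, 0.202% lower and 0.00776% higher. At an unadjusted p under 0.05, 2 members (Fosb and Jdp2) were lower and 0 higher, against 5.01% of all genes lower and 2.68% higher (7.69% in all). The estimate was below 0 in 8 members and above 0 in Mafk, and the median log2 fold change of the 9 was -0.41, beside 0.00 (0.0042) over all genes tested. Of the 8, Jun (-0.0022) and Junb (-0.029) lay near 0. Jun, Junb, Fosl2 and Mafk changed sign in 8, 3, 1 and 3 of the 17 alternative fits, so the count of 8 does not show a shared direction. In 3 members, Fosb, Jund and Jdp2, the cKO libraries all lay below the WT libraries, as in 8.12% of all genes, and in 0 members all lay above, as in 6.1% (14.2% in both directions). Without WT2 and cKO1, Fos and Atf3 joined them, so that 5 of 9 members had cKO libraries below the WT libraries, as in 21.6% of all genes, and 0 had them above, as in 20.7%.

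**Figure D2:**
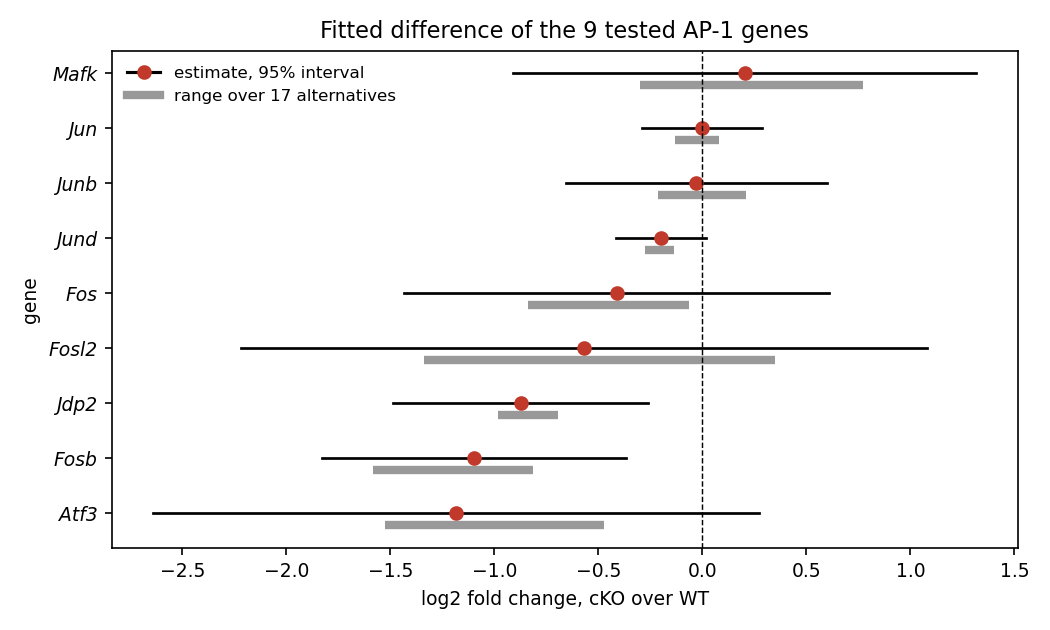
Fitted log2 fold change of cKO over WT for the 9 tested members, with the 95% interval of the reported fit as a black line and the range over the 17 alternative fits as a gray bar. The intervals of Fosb and Jdp2 lie below 0 before adjustment for the 12887 genes tested, and the intervals of Jun and Jund are the shortest.

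Among the FOS genes, Fosb had the largest estimated difference. Fosb (chromosome 7, positions 19302696 to 19310118) encodes a FOS protein that accumulates on repeated stimulation in the brain through a truncated isoform. It stood at 285, 715 and 367 CPM in the cKO libraries, against 972, 1024 and 929.9 CPM in the WT libraries. All cKO values lay below all WT values, and the WT libraries were tight, with a coefficient of variation of 4.81%, while the cKO libraries had one of 50.05%. The fitted log2 fold change was -1.10 ± 0.31 (SE; 95% interval -1.83 to -0.37), which did not pass edgeR's quasi-likelihood test (adjusted p = 0.356). The adjusted p ranged over the alternatives from 0.0841 without cKO2 to 0.831 without WT1. Without WT2 and cKO1 the log2 fold change was -0.81 ± 0.28 (SE) and the adjusted p 0.375 in the same test.

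Fos, the founding member and a classical immediate early gene, was divided by library more than by genotype. It stood at 325, 1072 and 737 CPM in the cKO libraries and 1104, 568 and 1169 CPM in the WT libraries. The lowest value was in cKO1 and the next in WT2, and the groups overlapped. The log2 fold change was -0.41 ± 0.44 (SE; 95% interval -1.44 to 0.61; adjusted p = 0.924 in edgeR's test). Without WT2 and cKO1 it was -0.33 ± 0.17 (SE; adjusted p = 0.532), and leaving out 1 library gave values from -0.84 without cKO2 to -0.06 without cKO1. Even the lowest count of Fos, 5588 reads in cKO1, carries a counting error of 1.34%, so that counting error is far below these differences; such errors cover counting alone.

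Fosl2, which encodes FRA2, ran the other way between libraries. It stood at 135, 61.5 and 24.6 CPM in the cKO libraries and 55.1, 213 and 60.2 CPM in the WT libraries. WT2 was highest and cKO1 second, cKO3 was lowest, and the other 3 libraries lay between 55.1 and 61.5 CPM. The log2 fold change was -0.57 ± 0.70 (SE; adjusted p = 0.940 in edgeR's test), and it was 0.35 without WT2. With WT2 and cKO1 both left out it was -0.42 ± 0.38 (SE; adjusted p = 0.751 in edgeR's test), so no direction can be given for Fosl2. Fosl1, which encodes FRA1, had 8.19, 4.50 and 0 estimated reads in the cKO libraries and 2.19, 13.3 and 1.04 in the WT libraries. It was not tested, and the count of 0 in cKO3 allows up to 0.167 CPM (3 reads). Its higher counts were again in WT2 and cKO1.

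Jun and Jund were the steadiest members, and Junb varied more. Jun, which encodes c-Jun, stood at 909, 1174 and 937 CPM in the cKO libraries and 945, 963 and 1117 CPM in the WT libraries. The groups overlapped throughout, and the log2 fold change was 0.00 ± 0.12 (SE; 95% interval -0.29 to 0.29; adjusted p = 0.9997 in edgeR's test); its sign changed with the scaling of the libraries. Jund, a JUN protein that is present in resting cells and restrains growth in fibroblasts, stood at 900.3, 999.7 and 829 CPM in the cKO libraries and 1019, 1006 and 1108 CPM in the WT libraries. The groups did not overlap, but cKO2 and WT2 lay within 1% of each other. The log2 fold change was -0.20 ± 0.09 (SE; 95% interval -0.42 to 0.02; adjusted p = 0.700 in edgeR's test).

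Junb stood at 4625, 4130.4 and 2392 CPM in the cKO libraries and 3187, 4917 and 3267 CPM in the WT libraries. WT2 was highest, cKO1 and cKO2 followed, and cKO3 was lowest. Its fitted log2 fold change was -0.03 ± 0.27 (SE; 95% interval -0.66 to 0.60; adjusted p = 0.996 in edgeR's test). Leaving out WT2 or cKO3 gave 0.20 and 0.21, so no direction can be given for Junb.

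Atf3, a stress-induced repressor that dimerizes with JUN proteins, was high in 1 library. It stood at 5.06, 4.47 and 1.11 CPM in the cKO libraries and 5.16, 14.4 and 4.67 CPM in the WT libraries. WT2 held 241 reads and cKO3 only 20.0, while the other 4 libraries held 82.0 to 93.0 reads. The fit gave a log2 difference of -1.18 ± 0.62 (SE; adjusted p = 0.775 in edgeR's test), the lowest estimate among the members. It was -0.47 without WT2, -0.76 without cKO3 and -0.81 without WT2 and cKO1, so its size rests on WT2 and cKO3.

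Jdp2 (chromosome 12, positions 85598656 to 85639878), which encodes a repressor that pairs with JUN proteins and recruits histone deacetylases, stood at 1.28, 1.96 and 2.01 CPM in the cKO libraries, against 3.72, 3.11 and 2.82 CPM in the WT libraries. All cKO values lay below all WT values. Its fitted log2 fold change was -0.87 ± 0.26 (SE; 95% interval -1.49 to -0.26; adjusted p = 0.403 in edgeR's quasi-likelihood test). Only 22.2 to 36.3 estimated reads per cKO library and 50.2 to 66.7 per WT library lie behind these values, a counting error of 21.2% at the lowest.

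Mafk encodes a small MAF protein, which has no activation domain and binds DNA as a partner of NRF and BACH proteins. It stood at 202, 109.8 and 68.9 CPM in the cKO libraries and 71.6, 182 and 76.5 CPM in the WT libraries. cKO1 and WT2 were highest and the groups overlapped. Its log2 fold change was 0.20 ± 0.47 (SE; 95% interval -0.91 to 1.32; adjusted p = 0.980 in edgeR's test), and -0.30 without cKO1, so its sign rests on single libraries; with WT2 and cKO1 both left out it was 0.27.

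Seen across libraries, the members fell into distinct patterns. Fosl2, Junb and Mafk had WT2 and cKO1 as their 2 highest libraries, as did 15.5% of all genes tested, whereas Fos had the same 2 libraries lowest, as did 14.1%. On the log2 CPM scale centred on each gene's mean, cKO1 deviated by 0.89 for Fosl2 and 0.91 for Mafk but by -1.22 for Fos and -1.17 for Fosb. WT2 deviated by 1.55 for Fosl2, 1.63 for Atf3 and 0.76 for Mafk, by -0.41 for Fos, and by 0.68 for Fosb. Fos and Fosb thus parted in WT2, where Fos was low and Fosb was at its highest. cKO3 was the lowest library for 5 members, with deviations down to -1.93 for Atf3 and -1.55 for Fosl2, as for 14.8% of all genes, and cKO1 was the lowest for the other 4, as for 20.5%. All 9 members were therefore lowest in a cKO library, as were 48.4% of all genes tested, a count made after the values were seen. The closest pair of members was Jun and Jund, with a root mean square distance of 0.12 over the 6 libraries, and the farthest was Fos and Fosl2, at 1.46. Jun and Jund also varied least, which by itself makes this distance small.

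**Figure D3:**
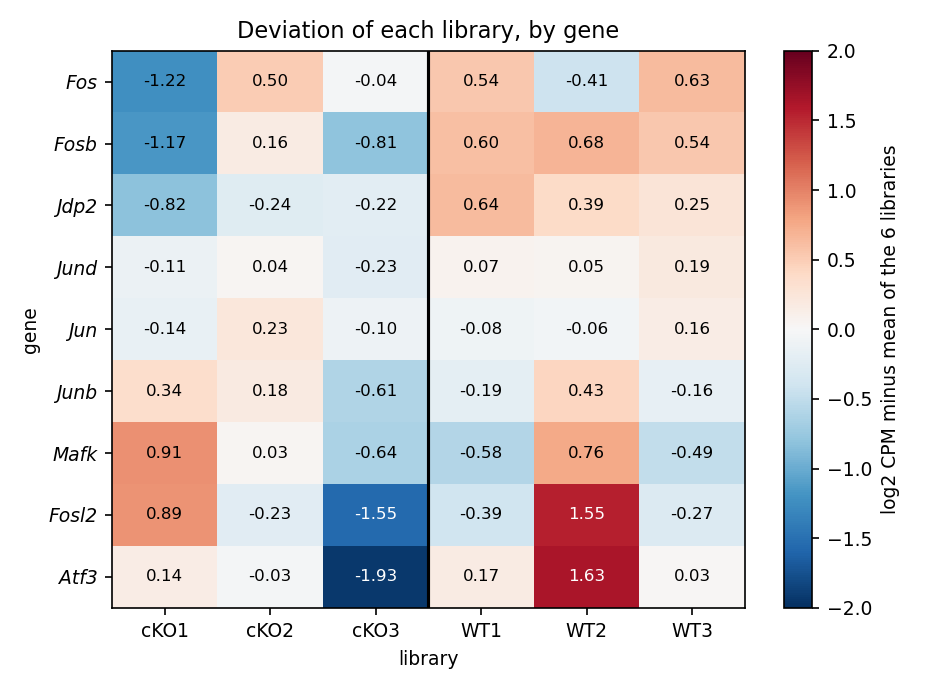
Log2 CPM of each tested member in each library minus that gene's mean over the 6 libraries, with cKO libraries left of the black line and WT libraries right of it. cKO1 and WT2 are blue for Fos (-1.22 and -0.41) and red for Fosl2 (0.89 and 1.55), while Jun and Jund are pale in all libraries.

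The spread between libraries of 1 genotype was larger for most members than for most genes. The within-group SD of log2 CPM had a median of 0.49 over the 9 members, beside 0.16 over all genes tested, and it exceeded that value in 8 members. It was 1.158 for Fosl2, 1.03 for Atf3, 0.76 for Mafk and 0.75 for Fos, all 4 above the 90th percentile of all genes (0.50). It was 0.49 for Fosb, 0.44 for Junb, 0.28 for Jdp2, 0.17 for Jun and 0.11 for Jund. Low counts widen this spread, so the members with a mean of at least 50 CPM were also set beside the 4355 genes at that level. The median was 0.49 over these 7 members and 0.11 over these genes, and 5 of the 7 lay above their 90th percentile (0.25). Without WT2 and cKO1 the median over the 9 members was 0.34, beside 0.10 over all genes. The SD was then 0.66 for Fosl2, 0.95 for Atf3, 0.34 for Mafk and 0.27 for Fos, so that much of the spread of Fos and Mafk lay in these 2 libraries. Leaving out cKO2 alone gave 0.16 for Fosb and 0.11 for Jun, and leaving out cKO1 alone gave 0.16 for Jdp2.

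**Figure D4:**
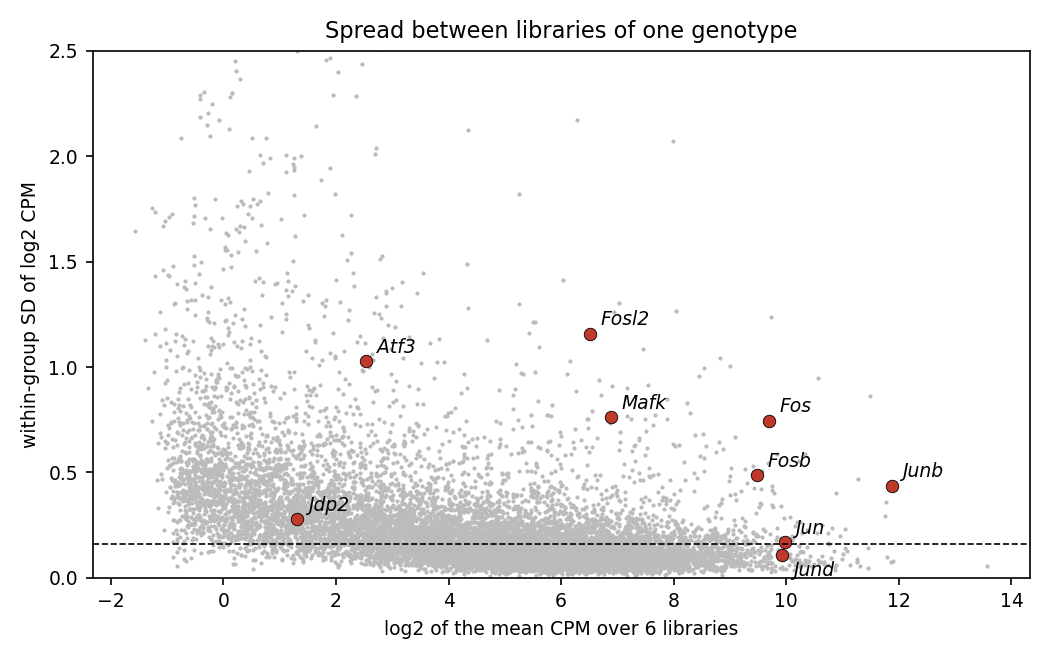
Within-group SD of log2 CPM against the log2 of the mean CPM over 6 libraries, for every gene tested (gray) and the 9 members (red); the dashed line is the median of all genes, 0.16, and 23 genes lie above the axis limit of 2.5. Fos, Fosb, Fosl2, Mafk and Junb stand above most genes of like level, whereas Jun and Jund lie near the line.

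The genes whose profiles were most like those of Fos and Junb were sought among 8753 other genes with a mean of at least 10 CPM, by the root mean square distance of centred log2 CPM over the 6 libraries. For Fos they were Stmn1 (0.27), which encodes the microtubule regulator stathmin, Entpd4b (0.29), whose reads may be shared with the near-identical Entpd4, and the mitotic kinesin gene Kif20a (0.30). These distances were large beside those of Junb, which was followed closely by the translation start factor gene Eif1 (0.081) and by Nfkbia (0.082), which encodes the NF-kappaB inhibitor IkappaB-alpha. The distance also depends on how much a gene varies, and the within-group SD was 0.75 for Fos and 0.44 for Junb. It is therefore no measure of shape alone. Nfkbia stood at 817, 751 and 406 CPM in the cKO libraries and 550.3, 972 and 635 CPM in the WT libraries, with WT2 highest and cKO3 lowest as for Junb.

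Other bZIP genes that pair or compete with these factors were not called either. Of 20 listed, 17 were tested, 0 were called by edgeR's test, and 2 were lower and 0 higher at an unadjusted p under 0.05. Over all genes tested, 5.01% were lower and 2.68% higher at that threshold. Their median log2 fold change was -0.10. Maf (c-MAF), a factor that promotes Il10 expression, had the lowest p, at 121, 136 and 139 CPM in the cKO libraries and 234, 175 and 226 CPM in the WT libraries (log2 fold change -0.68 ± 0.12 SE; adjusted p = 0.113 in edgeR's test). The second was Batf, the AP-1 partner of effector Treg cells, at 25.5, 35.9 and 32.8 CPM in cKO and 45.9, 39.7 and 40.7 CPM in WT (adjusted p = 0.461 in edgeR's test). In both, all cKO libraries lay below all WT libraries, as in 8.12% of all genes tested. Bach2 lay the other way without overlap, as in 6.1%, at 233, 183 and 192 CPM in cKO and 154, 178 and 174 CPM in WT. Maff, a second small MAF gene, chosen after its values were seen, repeated the profile of Fosl2, at 80.4, 36.8 and 13.5 CPM in cKO and 24.3, 97.0 and 24.9 CPM in WT.

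Upstream of AP-1, none of the 31 tested kinases, RAS exchange factors, ETS factors and serum response factor genes was called by edgeR's test (median log2 fold change 0.00), and 1 was lower and 3 higher at an unadjusted p under 0.05. Rasgrp2, an exchange factor that activates RAP1 in lymphocytes, had the lowest p, at 432, 358 and 410.3 CPM in the cKO libraries and 302, 316 and 316 CPM in the WT libraries (log2 fold change 0.36 ± 0.09 SE; adjusted p = 0.259). Their median within-group SD of log2 CPM was 0.13, below the 0.49 of the AP-1 members. Of the 14 dual-specificity phosphatase genes, which include feedback inhibitors of MAP kinases, 12 were tested and 0 called, with 2 lower and 0 higher at an unadjusted p under 0.05. The counts of this list and of the upstream list stand beside 5.01% lower and 2.68% higher over all genes tested. Dusp14 had the lowest p, at 3.26, 2.94 and 2.12 CPM in cKO and 5.93, 9.51 and 6.42 CPM in WT (log2 fold change -1.39 ± 0.26 SE; adjusted p = 0.125 in edgeR's test). Dusp10, an inhibitor of JNK and p38 chosen after its values were seen, was highest in the same libraries as Fosl2, at 484, 231 and 100.4 CPM in cKO and 99.9, 559 and 113 CPM in WT.

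Downstream, 19 cytokine, receptor and effector genes were listed as candidates for AP-1 control in T cells; not all are established targets, and the list was drawn up knowing that several of them are low in these cKO cells, so that it is no independent evidence of direction. Of the 13 tested, Klrg1, an inhibitory receptor of effector cells, was called lower and none was called higher. Klrg1 stood at 0.756, 0.491 and 0.111 CPM in the cKO libraries and 6.54, 7.77 and 6.53 CPM in the WT libraries (log2 fold change -3.93 ± 0.47 SE; adjusted p = 0.0449 in edgeR's test). The call was lost on leaving out any 1 library, with an adjusted p from 0.0638 without WT2 to 0.191 without WT1 in the same test, while the log2 fold change stayed between -4.49 and -3.47. In these fits no gene at all was called, except in the fit without WT2. Klrg1 stayed called by DESeq2, by limma-voom (adjusted p = 0.0459) and under the other scalings and filters. In edgeR's test it was called without WT2 and cKO1 together (0.0403), but not with the replicate number as a block (0.189). At an unadjusted p under 0.05, 7 of the 13 tested were lower and 0 higher, and the median log2 fold change was -0.70. Over all genes tested, 5.01% were lower and 2.68% higher at that threshold, and 0.202% were called lower. Il2, the classical NFAT and AP-1 target that Foxp3 represses, lay between 0.055 and 0.239 CPM and was not tested. Of 12 targets of NRF and small MAF proteins, 10 were tested and 0 called, with 0 at an unadjusted p under 0.05 and a median of -0.02; Srxn1, encoding sulfiredoxin, had the lowest p (log2 fold change -1.22 ± 0.54 SE; adjusted p = 0.665 in edgeR's test).

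A list of 24 other immediate early and dissociation-response genes, which can be induced while tissue is processed, was set beside the AP-1 genes. Of 23 tested, 0 were called by edgeR's test and 3 were lower at an unadjusted p under 0.05, and the median log2 fold change was -0.18. Over all genes tested, 5.01% were lower at that threshold. Dusp1 is 1 of these 3 and was also counted among the phosphatases above. Klf6, a zinc finger factor, had the lowest p, at 738, 762 and 685 CPM in the cKO libraries and 956, 1288 and 964 CPM in the WT libraries (adjusted p = 0.233). The summed level of the list was 20669, 19175 and 15913 CPM in the cKO libraries and 19033, 23790.0 and 19374 CPM in the WT libraries, highest in WT2 and lowest in cKO3, as for Fosl2, Junb and Atf3. Much of the difference in this sum came from 1 gene, Tnfaip3, which encodes the NF-kappaB inhibitor A20 and was singled out after its values were seen, at 4612, 2332 and 1152 CPM in the cKO libraries and 2060.4, 4898 and 2195 CPM in the WT libraries. Within the list, Hspa1a encodes an inducible HSP70 chaperone and was chosen after its values were seen. It was lowest in cKO1 and WT2 (5.35 and 12.7 CPM), as was Fos. The same libraries were the lowest for 14.1% of all genes tested. Other chaperone genes of the list did not all share this profile. Hspa1b was lowest in these libraries too (26.3 and 37.3 CPM). Dnaja1 was highest in them (159.6 and 215 CPM), against 117.9 to 141.5 CPM elsewhere. Hspa8 lay between 2283 and 2585 CPM throughout. The part of sample handling in the AP-1 levels was not tested.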

How the data were processed

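RNA-seq was available for 3 cKO and 3 WT libraries, grouped by their titles. Per the submitters' processing notes, the tools were DESeq2 (1.16.1), featureCounts (1.5.0-p3) and HISAT2 (2.0.5) and the build mm10, in no stated order. The authors deposited estimated counts per gene, not normalized, of which 45.4% to 46.3% per library were not whole to within 0.01; the sources used here do not say why. The authors also deposited values that behave as FPKM, as judged from the values: the gene length implied by each had a median coefficient of variation of 0.836% between libraries over 7997 genes.

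Estimated counts were rounded. In R 4.3.3, filterByExpr of edgeR 4.0.16 (minimum count 10) kept 12887 genes, which were scaled by TMM and tested with the quasi-likelihood F test on genotype, two-sided, with Benjamini-Hochberg adjustment over all of them, with calls made below 0.05. Standard errors come from the F statistic, and log2 CPM used a prior count of 2. The common biological coefficient of variation was 16.7%. The code was tested on simulated counts. Alternatives were DESeq2 1.42.0, limma-voom (limma 3.58.1), other scalings and filters, the replicate number as a block, robust and newer quasi-likelihood fits, and libraries left out. Named by rule beyond the 10 members were Tkt, the genes called or of lowest p in each pathway list, and the 3 closest profiles to Fos and Junb, of which 1 is not reported here. Batf, Bach2, Maff, Dusp1, Dusp10, Il2, Hspa1a, Hspa1b, Hspa8, Dnaja1, Tnfaip3 and the cell type markers with values were named outside this rule, after their values were seen. Members and lists were chosen with earlier results of these data known. Trac and Pdpn were not analysed here.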

Additional observations from a re-analysis of the deposited data

How the results depend on the processing

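No AP-1 gene was called under any of the 17 alternatives. Fos, Fosb, Jund, Atf3 and Jdp2 stayed below 0 in all of them. The log2 fold change of Jun was 0.00077 with RLE factors, 0.00078 with DESeq2, 0.0085 with upper quartile scaling, 0.00012 with no low-count filter and 0.035 without WT2 and cKO1, where that of Junb was 0.016. Leaving out 1 library gave ranges of -0.13 to 0.0800 for Jun, -0.22 to 0.21 for Junb, -1.34 to 0.35 for Fosl2 and -0.30 to 0.77 for Mafk.

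Over all genes, 27 were called. DESeq2 called 179, no low-count filter 43, robust empirical Bayes 48, and the fit without WT2 and cKO1 called 71. Leaving out 1 library gave 0 to 30, with 0 for every library but WT2 (681 to 909 at an unadjusted p under 0.05), so a count of 0 members says little there. The cause was not tested.

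With the replicate number as a block, 0 genes were called (811 at an unadjusted p under 0.05), and Fosb had a log2 fold change of -1.21 (adjusted p = 0.319). The deviations of same-numbered libraries correlated at -0.28, 0.06 and 0.26, and cKO1 deviated most like WT2 (0.31). These correlations cannot decide whether same-numbered libraries were paired, because pairing is a matter of the design, which the library titles do not give.

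Depth limits Fosl1 and Jdp2, and for Atf3 it limits cKO3 most, where 20 reads carry a counting error of 22.4%. The values of Atf3, 1.11 to 14.4 CPM across libraries, varied by more than that.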
